A study of Rattus norvegicus with 42 samples.

Results

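The comparison is of phenobarbital (PB) with vehicle (VEH) in animals 1 to 6 of each group, the animals whose sample codes have 2 letters, and it takes 12 of the 42 libraries of the study, 6 PB and 6 VEH. The animals were Sprague Dawley rat pups, labelled male, of a strain with no genetic modification. At postnatal day 7 the PB pups received 75 mg/kg PB and the VEH pups saline, by the intraperitoneal route, and the hippocampus was taken 72 hours later for RNA sequencing, 1 library per animal. Animals 7 to 14 of both groups (8 PB and 7 VEH libraries, with VEH animal 7, which the study left out, not used) and the 6 levetiracetam (LEV, 200 mg/kg) animals 1 to 6 are given only where they are set beside these 12. The pups came in 2 orders, with 1 pup per litter in each treatment group, but the labels do not say which order or litter an animal belonged to.

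PB is a barbiturate that prolongs the opening of GABA-A receptors, and it is given for seizures of the newborn. In the rat, the first weeks after birth are a time of synapse formation, of gliogenesis and of rising expression of the astrocyte proteins that clear glutamate and potassium from the extracellular space. Ribosomal proteins are the structural subunits of the ribosome, and many of their mRNAs start with a tract of pyrimidines through which growth signals regulate their translation. Hippocampal tissue holds no skeletal muscle, so that transcripts of muscle are reported apart below.

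In these 12 animals PB and VEH differed in few transcripts. Of 12941 tested transcripts, 10 (0.0773%) were differentially expressed, which here means an adjusted p below 0.05 together with a log2 fold change of 0.32 or more in either direction. Of these, 2 (0.0155%) were higher and 8 (0.0618%) lower after PB. Among the 10, 5 were skeletal muscle transcripts, all lower after PB. The other 5 were the ribosomal protein transcript Rps29 and 1 transcript of the astrocyte glutamate transporter Slc1a3, both higher, and Gpam, Kcnj10 and 1 transcript of the glutamate transporter Slc1a2, all lower. At an unadjusted p under 0.05 there were 1400 transcripts (10.8%), 611 higher (4.72%) and 789 lower (6.10%), among which ribosomal protein transcripts were nearly all higher. When animals 7 to 14 were tested in the same way on their own 15 libraries, 107 of 12837 transcripts (0.834%) were differentially expressed, and all 5 non-muscle transcripts of animals 1 to 6 had a log2 fold change of the opposite sign there, none of which passed the test. The count was small and moved with single animals, being 5 without VEH animal 1, 16 without PB animal 2 and 15 without VEH animal 6, and it was 42 in DESeq2.

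The libraries held 10251100 to 14488125 estimated counts in the VEH group (median 12661331.5) and 11182382 to 13140891 in the PB group (median 12120422), which did not differ beyond the spread between animals (two-sided exact permutation test over 924 splits, p = 0.587, smallest possible p = 0.00216). Markers of the hippocampus were present in all 12, with normalized counts of 779 to 1020 for Prox1, of dentate granule cells, and of 3152 to 3667 for Neurod6, of pyramidal cells. In VEH animal 1 the Y-linked transcripts Eif2s3y and Ddx3 stood at 0.82 and 0 normalized counts, against 747 to 974 and 553 to 690 in the other 11 libraries, which goes against its label as a male. The choroid plexus transcript Ttr, which comes from tissue attached to the hippocampus, ranged from 9.19 to 81107 normalized counts, with high values in both groups (VEH animals 1 and 4, PB animals 3 and 5). PB animal 2 lay apart from the rest on the first 2 principal components (25.3% and 14.6% of the variance). Ribosomal RNA took 2.67% to 8.29% of the counts in VEH and 3.68% to 12.3% in PB animals, the highest share being that of PB animal 2. The counts of differentially expressed transcripts and those of the ribosomal, astrocyte, interneuron and release lists are also given without VEH animal 1 or PB animal 2.

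The 6 named skeletal muscle genes were higher in all 6 VEH animals than in any PB animal, and all but Acta1 were near 0 after PB. Ckm, the creatine kinase of muscle (chromosome 1 of rn6, 80321585 to 80331842), had normalized counts of 22.3, 29.1, 35.1, 28.9, 28.4 and 44.2 in VEH animals 1 to 6, and of 0 in all PB animals but animal 2, which had 0.97. This corresponds to 200 counted reads over the VEH group and 1 over the PB group, a ratio per unit of depth of 195 (exact 95% interval 34.6 to 7735, which covers counting error only), and the groups did not overlap (edgeR adjusted p = 4.07e-06). Myh4, a fast myosin heavy chain (chromosome 10, 53778666 to 53801607), lay between 33.0 and 73.1 in VEH and between 2.94 and 8.70 in PB animals. Atp2a1, the calcium pump of fast muscle (chromosome 1, 197855912 to 197875039), lay between 37.1 and 71.3 in VEH and between 0.98 and 5.38 in PB animals. Both were lower in every PB animal than in any VEH animal, by a log2 fold change of -3.46 (SE 0.29, edgeR adjusted p = 2.09e-05) for Myh4 and of -4.06 (SE 0.29, edgeR adjusted p = 4.07e-06) for Atp2a1.

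Acta1, skeletal alpha-actin (chromosome 19, 56674072 to 56677085), was the most abundant of these transcripts and the one furthest above 0 after PB. Its normalized counts were 164, 196, 183, 215, 191 and 228 in VEH animals 1 to 6, and 111, 119, 106, 142, 100.4 and 136 in PB animals 1 to 6. The groups again did not overlap (log2 fold change -0.72, SE 0.11, edgeR adjusted p = 0.0144). Tnni2, fast troponin I (chromosome 1, 215609110 to 215611653), lay between 8.02 and 19.0 in VEH animals and between 0 and 3.13 in PB animals, with 4 PB animals at 0, and did not pass the filter on low counts. Fitted without that filter, it fell by 3.93 on the log2 scale (edgeR adjusted p = 0.0208). Tnnt3, fast troponin T, is listed as 11 transcripts, none of which passed the filter, and without it NM_001270677 was differentially expressed (log2 fold change -2.05, edgeR adjusted p = 0.0359). Their sum lay between 25.0 and 46.9 in VEH and between 2.94 and 9.39 in PB animals, and when counts were summed per gene it fell by 2.27 on the log2 scale (SE 0.27, edgeR adjusted p = 0.000803).

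Among the other muscle transcripts listed, 8 were tested and 1 was differentially expressed, Tnnc2, fast troponin C (10.0 to 19.2 in VEH, 0 to 4.83 in PB, log2 fold change -2.36, SE 0.42, edgeR adjusted p = 0.0454). Myh1, Eno3, Pgam2, Myh2, Casq1, Des and Mybpc2 overlapped between the groups, and their log2 fold changes ranged from -0.52 to 0.46. Summed over the transcripts of Ckm, Myh4, Atp2a1, Tnni2, Acta1 and Tnnt3, the level was 25.8 to 39.7 CPM (counts scaled to a common library size) in VEH and 9.70 to 14.2 CPM in PB animals.

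The same transcripts were also read in the other animals. The LEV animals 1 to 6 carried them too, with 13.5 to 46.8 normalized counts of Ckm, 26.6 to 91.6 of Myh4 and 18.3 to 80.4 of Atp2a1, ranges that overlapped those of the VEH animals. In animals 7 to 14 Ckm stood at 0 in all 7 VEH and all 8 PB animals, and Atp2a1 at 0 to 5.74 in VEH and 1.02 to 7.35 in PB animals. For both, the VEH animals 7 to 14 lay in the range of PB animals 1 to 6 or within 1 count of it. Whether muscle tissue was taken with the hippocampus was not tested. Fewer cells of a type and less RNA per cell cannot be told apart in bulk tissue, for these and for all transcripts that follow.

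**Figure D1:**
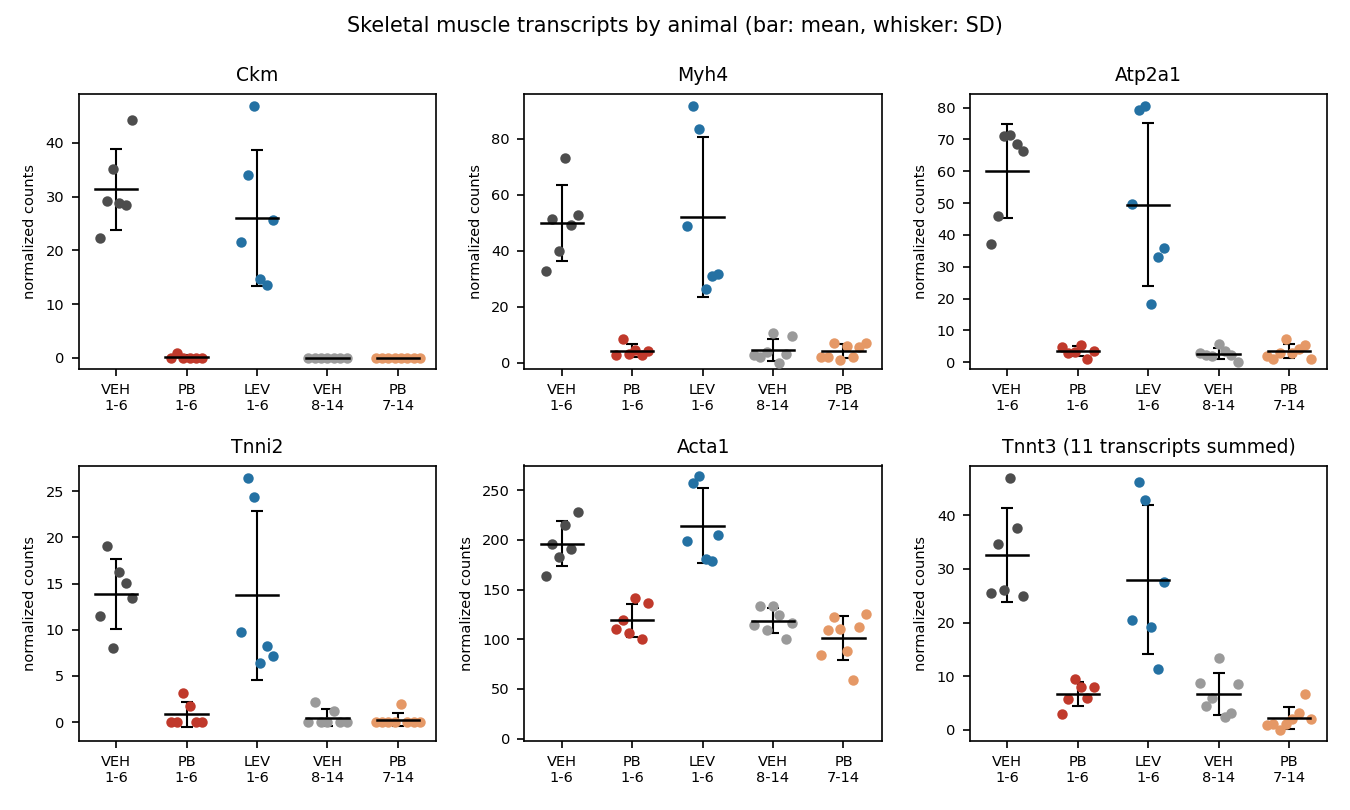
Normalized counts of the 6 skeletal muscle genes, each point 1 animal, with the mean (bar) and SD (whisker) of VEH, PB and LEV animals 1 to 6 and of VEH and PB animals of the later series. VEH and LEV animals 1 to 6 are high and PB animals 1 to 6 are at the level of the later animals, with Ckm at 0 to 0.97 in PB animals 1 to 6.

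Acta1 shows the regulatory element known from muscle promoters, the CArG box, which binds serum response factor. The promoter below runs from 250 bases before to 50 after the gene start (chr19:68784145-68784444, minus strand, GRCr8, RefSeq), with the CArG box in capitals.
Acta1: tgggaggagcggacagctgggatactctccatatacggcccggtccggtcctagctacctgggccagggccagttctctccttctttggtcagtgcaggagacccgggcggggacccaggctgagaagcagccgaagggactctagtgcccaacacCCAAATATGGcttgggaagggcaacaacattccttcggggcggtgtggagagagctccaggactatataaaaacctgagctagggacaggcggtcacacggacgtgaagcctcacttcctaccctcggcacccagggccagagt
Of 33469 rat promoters of this length, 548 (1.64%) hold a CArG box, which reads alike on both strands, and so do 2 of the 5 promoters found for the 6 named muscle genes. Over all muscle genes listed, the named ones included, it is 2 of 31 promoters (6.45%).

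Parvalbumin (Pvalb) is made by fast muscle as well as by interneurons, and its values are therefore set beside those of the muscle transcripts. Its normalized counts were 59.4, 64.9, 90.3, 62.3, 79.3 and 58.6 in VEH animals 1 to 6 and 27.4, 9.67, 32.3, 58.2, 147 and 29.0 in PB animals 1 to 6. All PB animals except animal 5 were below the lowest VEH animal, while PB animal 5 was above the highest (log2 fold change -0.45, SE 0.44, edgeR adjusted p = 0.752). Pvalb lay between 27.3 and 94.4 in VEH and between 20.2 and 37.8 in PB animals 7 to 14, where Ckm was at 0 in all 15 libraries (log2 fold change -1.18, SE 0.22, edgeR adjusted p = 0.0154). The difference between the series in Pvalb was 0.73 (SE 0.50) and did not pass the test. Pygm, the glycogen phosphorylase of muscle, which is also made in astrocytes, overlapped between the groups (196 to 275 in VEH, 176 to 235 in PB, log2 fold change -0.30, SE 0.10, edgeR adjusted p = 0.280).

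Outside muscle, the smallest adjusted p was that of Rps29, a protein of the small ribosomal subunit (chromosome 6 of rn6, 91455333 to 91456710). Its normalized counts were 2955, 3211, 2984, 2907, 3212 and 3031 in VEH animals 1 to 6 and 3850, 3747, 3850, 3772, 4251 and 3919 in PB animals 1 to 6. Every PB animal lay above every VEH animal, by a log2 fold change of 0.35 (SE 0.04, edgeR adjusted p = 0.00155), and Rps29 was differentially expressed in all 12 fits that left out 1 animal each. The LEV animals 1 to 6, which share the VEH animals, lay between 3131 and 3539. Rps29 ranged more widely in animals 7 to 14, from 1662 to 3797 in VEH and from 1602 to 4323 in PB animals, with no difference that passed the test (log2 fold change -0.09, SE 0.21, edgeR adjusted p = 0.840). In the fit of all 41 animals, which shares their spread, Rps29 had an edgeR adjusted p of 0.596 in animals 1 to 6.

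Rps29 stood at the head of its family. Of 98 tested ribosomal protein transcripts, 92 had a positive log2 fold change, and 78 (79.6%) were higher at an unadjusted p under 0.05 with none lower, against 4.72% higher among all tested transcripts. These counts hold some entries with identical values more than once, namely those of Rpl39, Rps6, Rplp2 and of Rps9 with Rps9l1. Only Rps29 passed an adjusted p of 0.05 in the edgeR fit of these 12 animals, while 26 did in DESeq2, 16 in the fit of 18 animals with LEV, 6 with the choroid plexus level as covariate and 5 without PB animal 2. In the fit of all 41 animals none did, and 59 were higher at an unadjusted p under 0.05. The median log2 fold change was 0.18 (1.14-fold), against 0.01 over all tested transcripts, and in 29 of the 98 all PB animals lay above all VEH animals, as in 0.541% of all tested transcripts. Both subunits took part, with 31 of 43 small-subunit and 47 of 55 large-subunit transcripts higher at an unadjusted p under 0.05, and with medians of 0.18 and 0.20. After Rps29 the smallest p values were those of Rpl41, Rpl27a, Rplp1, Rpl35 and Rpl31, with log2 fold changes of 0.29, 0.23, 0.27, 0.18 and 0.23 and edgeR adjusted p values from 0.0538 to 0.0691.

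Summed over the ribosomal protein transcripts, the level was 13880, 14112, 13133, 14101, 13809 and 13763 CPM in VEH animals 1 to 6 and 15694, 18018, 14762, 14799, 15313 and 15162 in PB animals 1 to 6. The lowest PB animal thus lay above the highest VEH animal, and PB animal 2, which also had the largest share of ribosomal RNA, was the highest. The mean over the 98 transcripts of log2 (CPM plus 1) was 6.150 to 6.249 in VEH, 6.325 to 6.611 in PB and 6.196 to 6.320 in LEV animals 1 to 6. In animals 7 to 14 it ranged more widely and overlapped, with 5.976 to 6.327 in VEH and 6.035 to 6.522 in PB animals. Without PB animal 2, 68 of the 98 transcripts were still higher at an unadjusted p under 0.05, with a median of 0.14, and without VEH animal 1, 79 were. Over the 12 fits that left out 1 animal each, between 68 and 81 were higher and at most 2 lower. The share of ribosomal RNA overlapped between the groups, and its part in this result was not tested. Reads of ribosomal protein transcripts may be shared with their many processed pseudogenes, so that single members are uncertain. The 6 members with a negative log2 fold change were Rps2, a transcript of Rpl37a with mean normalized counts of 15.6 in VEH and 11.7 in PB animals, and 4 noncoding entries of Rps9 and Rps9l1 that have identical values, with means of 10.8 and 10.3. The abundant Rps9 and Rps9l1 entries, with means of 607 in VEH and 675 in PB animals, were above 0 (log2 fold change 0.15, SE 0.06, edgeR adjusted p = 0.389).

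**Figure D2:**
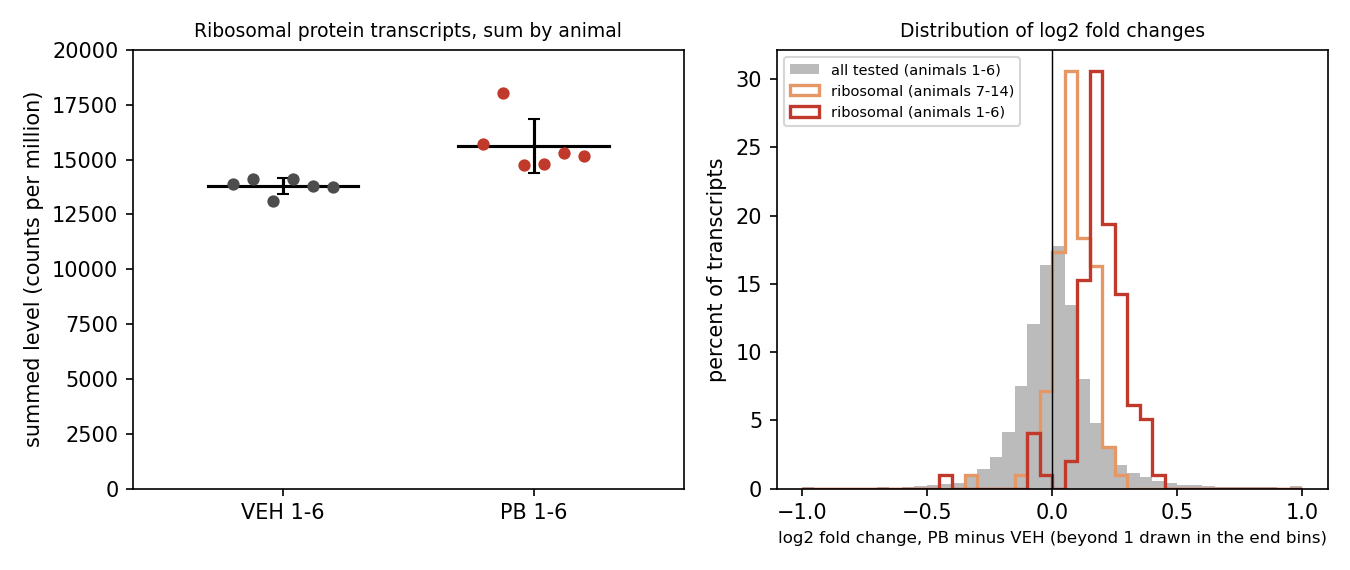
Left, summed level of ribosomal protein transcripts in CPM, each point 1 animal, with mean (bar) and SD (whisker): 13133 to 14112 in VEH and 14762 to 18018 in PB animals 1 to 6. Right, percent of transcripts by log2 fold change for all tested transcripts (filled) and for 98 ribosomal protein transcripts in animals 1 to 6 and in animals 7 to 14, whose medians were 0.18 and 0.08.

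Of the 98 transcripts, 85 again had a positive log2 fold change in animals 7 to 14, but the median there was 0.08, and 6 were higher and none lower at an unadjusted p under 0.05, against 9.22% and 9.54% of all tested transcripts. Between the series, 5 of the 98 differed at an unadjusted p under 0.05, against 10.5% of all transcripts, and none at an adjusted p of 0.05. A smaller response in animals 7 to 14 was therefore not shown by the test of the difference.

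Many ribosomal protein mRNAs are known for a pyrimidine tract at their start, and the 6 members with the smallest p after Rps29 are shown for it. Each line runs from 20 bases before the annotated gene start to the first 20 bases of the transcript (GRCr8), with the motif CTTTC in capitals.
Rpl41: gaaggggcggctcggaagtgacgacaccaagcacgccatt
Rpl27a: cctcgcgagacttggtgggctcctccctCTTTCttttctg
Rplp1: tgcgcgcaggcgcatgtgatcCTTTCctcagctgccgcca
Rpl35: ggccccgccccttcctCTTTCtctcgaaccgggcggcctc
Rpl31: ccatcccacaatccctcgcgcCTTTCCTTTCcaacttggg
Rps15a: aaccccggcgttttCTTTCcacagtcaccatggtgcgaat
Their positions are chr7:1563478-1563517 (minus) for Rpl41, chr1:172974553-172974592 (plus) for Rpl27a, chr8:71290853-71290892 (minus) for Rplp1, chr3:43165902-43165941 (minus) for Rpl35, chr9:49143091-49143130 (plus) for Rpl31 and chr1:181860265-181860304 (minus) for Rps15a. Rpl41 has no CTTTC in this window and Rpl31 has 2 in a row. Of 79 tested ribosomal protein genes, 64 were matched to RefSeq promoters, and the motif stood on the transcribed strand within 20 bases of the start in 29 of their 65 promoters (44.6%), against 4.97% of all 33469 promoters. On the other strand it stood in 1.54% and 5.07% of them. The motif is a description of these genes and not of the response to PB.

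Astrocyte transcripts gave 3 of the other 4 differentially expressed transcripts outside muscle. Of 29 tested transcripts of 20 astrocyte genes, 13 were lower and 2 higher at an unadjusted p under 0.05 (44.8% and 6.90%, against 6.10% and 4.72% of all tested transcripts), 2 lower and 1 higher were differentially expressed, and the median log2 fold change was -0.10. In the broader astrocyte list that the study took from published work, 71 of 425 tested transcripts were lower (16.7%) and 18 higher (4.24%), 191 were above 0, and the median was -0.02, nearer to that of all tested transcripts (0.01). The 13 lower transcripts belong to 9 genes, which take up or carry glutamate (Slc1a2, Slc1a3), GABA (Slc6a11), small amino acids (Slc7a10), citrate (Slc13a5), bicarbonate (Slc4a4), potassium (Kcnj10) and water (Aqp4) or receive fibroblast growth factor (Fgfr3). The filament genes Gfap and Vim, which rise in reactive astrocytes, and the identity genes S100b, Sox9, Aldh1l1 and Gja1 had values of 0.15, 0.26, -0.05, -0.03, -0.15 and -0.05, of which Vim had an unadjusted p under 0.05 but none passed the adjusted test.

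Kcnj10, the inward rectifier potassium channel Kir4.1 (chromosome 13 of rn6, 90723077 to 90752582), had normalized counts of 286, 356, 291, 274, 307 and 269 in VEH animals 1 to 6 and of 212, 191, 215, 236, 195 and 229 in PB animals 1 to 6. The groups did not overlap (log2 fold change -0.48, SE 0.08, edgeR adjusted p = 0.0336). They overlapped in animals 7 to 14, with 259 to 315 in VEH and 233 to 350 in PB animals (log2 fold change 0.03, SE 0.09). The LEV animals 1 to 6 lay between 165 and 201, also below all VEH animals 1 to 6. The difference between the series did not pass the test (edgeR adjusted p = 0.154).

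Slc1a2, the main glutamate transporter GLT-1, is listed as 3 transcripts, among which the counting divides shared reads. The most abundant of them (NM_001302089, chromosome 3, 92640765 to 92665732) had normalized counts of 2295, 2317, 2150, 1713, 1574 and 1539 in VEH animals 1 to 6 and of 1329, 974, 1146, 1336, 1251 and 1207 in PB animals 1 to 6. It was lower in every PB animal (log2 fold change -0.68, SE 0.11, edgeR adjusted p = 0.0336), and the VEH animals fell into higher values in animals 1 to 3 and lower ones in animals 4 to 6. The LEV animals 1 to 6, which share the VEH animals, lay between 768 and 1342, also below all VEH animals 1 to 6. The other transcripts, NM_001035233 and NM_017215, had log2 fold changes of -0.41 and -1.26 with edgeR adjusted p values of 0.0927 and 0.204, the second at 2.90 to 27.1 normalized counts per animal. Summed per gene, Slc1a2 fell by 0.64 on the log2 scale (SE 0.10, edgeR adjusted p = 0.00852). The abundant transcript lay between 1282 and 1961 in VEH and between 1269 and 2245 in PB animals 7 to 14, with no difference that passed (log2 fold change 0.09, SE 0.12).

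Slc1a3, the glutamate transporter GLAST, went both ways by transcript. A minor transcript (NM_001289943, chromosome 2, 57860881 to 57935353) had normalized counts of 325, 160, 246, 329, 293 and 274 in VEH animals 1 to 6 and of 552, 497, 413, 400.5, 450 and 599.9 in PB animals 1 to 6, and every PB animal was higher (log2 fold change 0.83, SE 0.15, edgeR adjusted p = 0.0427). The LEV animals 1 to 6 lay between 460.4 and 732, likewise above all VEH animals 1 to 6. The main transcript (NM_019225) lay between 11083 and 12703 in VEH and between 9325 and 10981 in PB animals, and so was lower in every PB animal without passing the adjusted test (log2 fold change -0.21, SE 0.05, edgeR adjusted p = 0.112). Summed per gene, Slc1a3 had a log2 fold change of -0.16 (SE 0.05, edgeR adjusted p = 0.191). The minor transcript was more abundant in both groups of animals 7 to 14, at 605 to 1842 in VEH and 632 to 1091 in PB animals, where its log2 fold change was -0.35 (SE 0.18, edgeR adjusted p = 0.284). How the counting divided the reads of Slc1a3 among its 4 transcripts was not tested.

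Several astrocyte transcripts lay just outside the adjusted limit. Slc4a4, the sodium bicarbonate cotransporter, lay between 602 and 947 in VEH and between 507 and 609 in PB animals (log2 fold change -0.49, SE 0.09, edgeR adjusted p = 0.0539). It was differentially expressed in DESeq2 (DESeq2 adjusted p = 0.000505). In edgeR it was so in the fits of 18 animals (edgeR adjusted p = 0.0256) and of all 41 animals (0.0458), with the choroid plexus covariate (0.0335) and with counts summed per gene (0.0363). Slc6a11, the GABA transporter GAT-3, had a log2 fold change of -0.28 (SE 0.06, edgeR adjusted p = 0.0927). In LEV animals 1 to 6 Slc4a4 lay between 345 and 492, also below all VEH animals 1 to 6. Slc6a11 overlapped, with 836 to 1121 in LEV and 1109 to 1342 in VEH animals. Aqp4 is listed as 5 transcripts, 2 of them with identical values, and their log2 fold changes ranged from -0.32 to 0.36, with 3 lower at an unadjusted p under 0.05. Without PB animal 2, NM_001270558 was differentially expressed and higher (0.51, edgeR adjusted p = 0.0438), while NM_001142366 was so and lower in DESeq2 (-0.32, DESeq2 adjusted p = 0.00873).
Of the 13 lower astrocyte transcripts, 8 were also below 0 in animals 7 to 14, and 4 of these at an unadjusted p under 0.05. Between the series, 11 of the 29 astrocyte transcripts differed at an unadjusted p under 0.05, against 10.5% of all transcripts. None of the 29 did at an adjusted p of 0.05. In the study's broader list, 70 of 429 differed at an unadjusted p under 0.05, and 1 at an adjusted p of 0.05. Of the 29, 11 were lower and 3 higher at an unadjusted p under 0.05 without VEH animal 1 (median -0.07), and 12 were lower and 4 higher without PB animal 2 (median -0.10). Over the 12 fits that left out 1 animal between 10 and 13 were lower, and the median was -0.16 without PB animal 3.

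**Figure D3:**
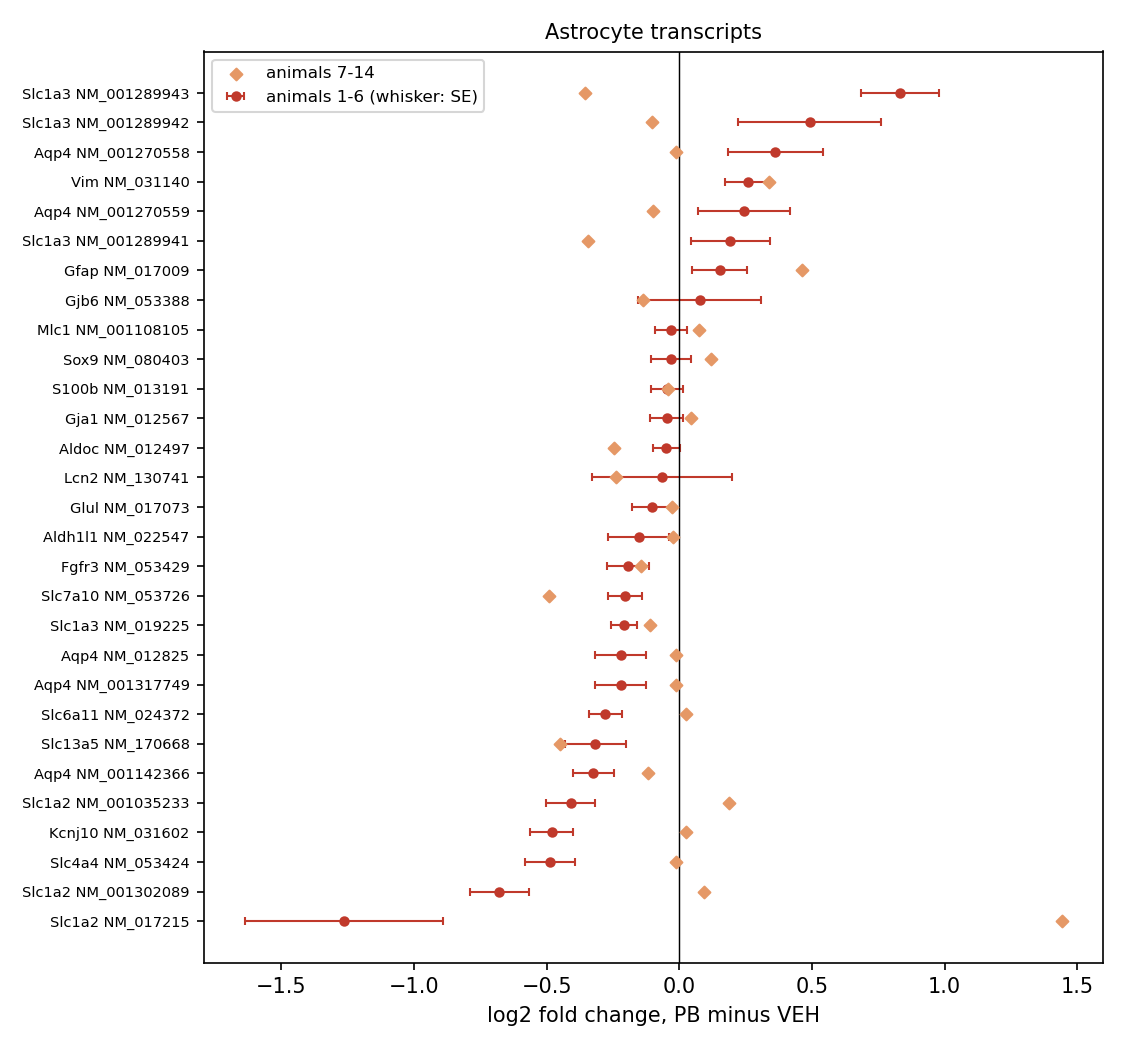
Log2 fold change (PB minus VEH) of 29 astrocyte transcripts in animals 1 to 6 (circles, with SE) and in animals 7 to 14 (diamonds), ordered by the first. The transcripts of Slc1a2 lie below 0 in animals 1 to 6 and above 0 in animals 7 to 14, and the minor transcript of Slc1a3 the other way round.

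Gpam, the mitochondrial acyltransferase that starts glycerolipid synthesis (chromosome 1 of rn6, 275847064 to 275906687), was the fifth. Its normalized counts were 806, 849, 791, 836, 796 and 801 in VEH animals 1 to 6 and 712, 710, 582, 643, 605 and 618 in PB animals 1 to 6. The VEH values lay close together and above all PB values (log2 fold change -0.34, SE 0.05, edgeR adjusted p = 0.0241). The LEV animals 1 to 6 lay between 524 and 639, likewise below all VEH animals 1 to 6. Gpam lay between 727 and 906 in VEH and between 749 and 922 in PB animals 7 to 14 (log2 fold change 0.08, SE 0.06), and of the 5 non-muscle transcripts it was the one whose effect differed between the series by the test of the difference (-0.41, SE 0.08, edgeR adjusted p = 0.0390). That call was lost without VEH animal 1, 2, 3 or 4, without PB animal 3, 5 or 6, with the replicate block and with VEH animal 7 kept.

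The 4 transcripts other than Rps29 were close to the limit. Without VEH animal 1 the edgeR adjusted p was 0.0748 for Gpam, 0.0767 for Kcnj10, 0.0771 for the Slc1a2 transcript, 0.0748 for the Slc1a3 transcript and 0.0997 for Tnnc2, while Rps29 kept 0.00755 and Ckm, Atp2a1, Myh4 and Acta1 remained differentially expressed. Over the 12 fits that left out 1 animal each, Gpam and the Slc1a2 transcript passed in 5, Kcnj10 and the Slc1a3 transcript in 3 and Tnnc2 in 2. Their log2 fold changes stayed within -0.37 to -0.31 for Gpam, -0.51 to -0.42 for Kcnj10, -0.73 to -0.62 for the Slc1a2 transcript and 0.72 to 0.89 for the Slc1a3 transcript. With robust dispersion the Slc1a2 and Slc1a3 transcripts were not differentially expressed, and with the replicate block none of these 4 was.

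**Figure D4:**
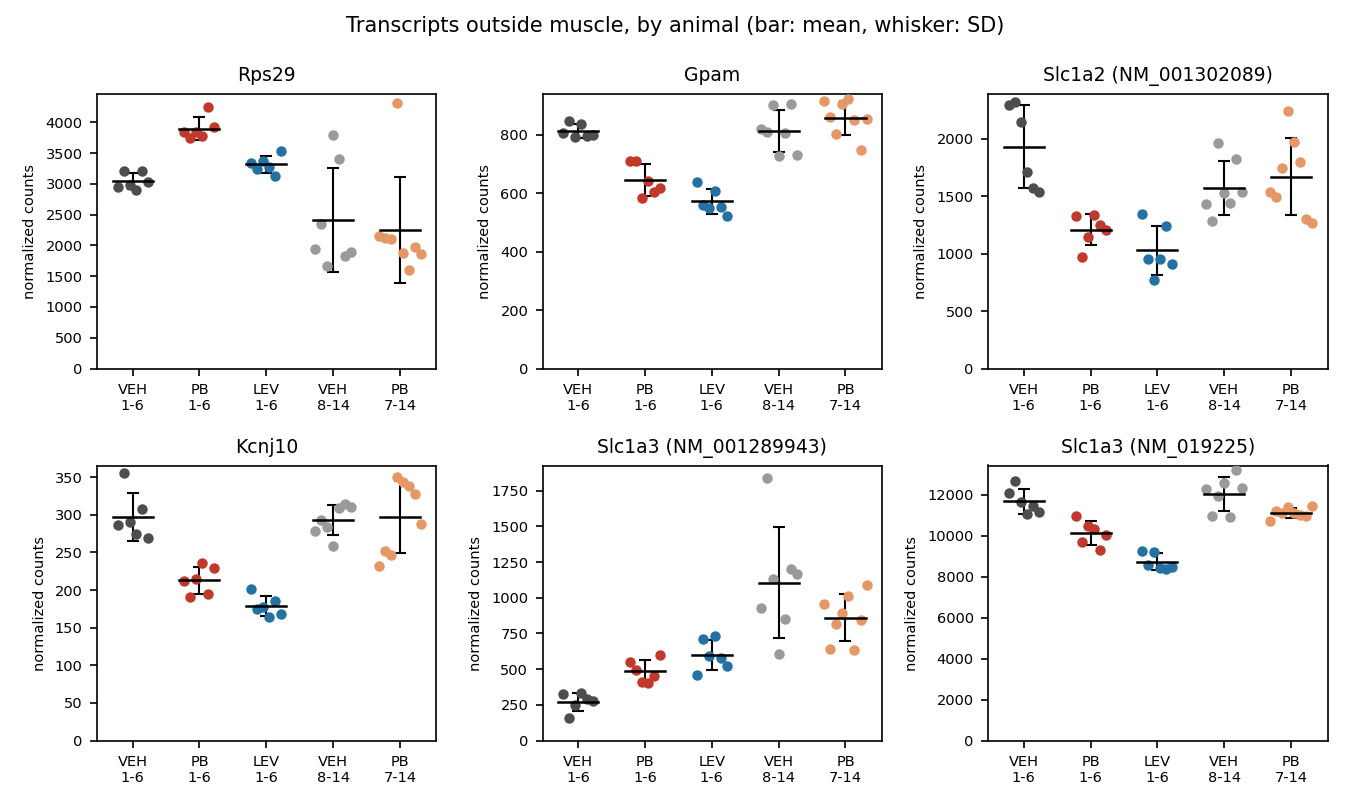
Normalized counts of Rps29, Gpam, Kcnj10, the called transcripts of Slc1a2 and Slc1a3 and the main Slc1a3 transcript, each point 1 animal, with the mean (bar) and SD (whisker) of each group. PB animals 1 to 6 do not overlap VEH animals 1 to 6 in any panel, and the later VEH and PB animals overlap in all of them.

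Another 7 transcripts passed the adjusted p of 0.05 (17 in all, 0.131% of those tested, with 3 higher, 0.0232%, and 14 lower, 0.108%) but stayed under the limit of 0.32 on the log2 scale. Those lower after PB were Uhmk1, a kinase (log2 fold change -0.31, edgeR adjusted p = 0.0144), Syt11, a synaptotagmin (-0.25, edgeR adjusted p = 0.0336), Paqr8, a membrane progestin receptor (-0.32, edgeR adjusted p = 0.0336), Btbd3, which shapes dendrites (-0.30, edgeR adjusted p = 0.0336), Gng7, a G protein subunit (-0.23, edgeR adjusted p = 0.0454), and Hapln1, the link protein of perineuronal nets (-0.29, edgeR adjusted p = 0.0487). The ribosomal protein pseudogene Rpl37a-ps1 was higher (0.24, edgeR adjusted p = 0.0336). In LEV animals 1 to 6, which share the VEH animals, Uhmk1, Syt11, Paqr8, Btbd3, Gng7 and Hapln1 also lay below all VEH animals. The LEV range was 1095 to 1343 for Uhmk1, against 1434 to 1676 in VEH, and 1947 to 2355 for Gng7, against 2360 to 2743. Rpl37a-ps1 overlapped, with 3335 to 3456 in LEV and 3016 to 3418 in VEH. Of the 12 non-muscle transcripts with an adjusted p under 0.05, 5 kept their direction in animals 7 to 14 (Hapln1, Syt11, Btbd3, Gng7 and Rpl37a-ps1), 2 of them at an unadjusted p under 0.05 (Syt11 and Gng7).

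In the neuronal lists more members were lower than higher at an unadjusted p under 0.05, and none passed an adjusted p of 0.05 in the edgeR fit of these 12 animals. In DESeq2, Sst (DESeq2 adjusted p = 0.0210), Gabrg1 (0.00121), Grin2b (0.00255), Abat (0.0488) and Grm3 (0.0402) were differentially expressed. In edgeR, Gabrg1 was so in the fit of 18 animals (edgeR adjusted p = 0.0157), with the choroid plexus covariate (0.0157) and with counts summed per gene (0.0374), Reln without PB animal 3 (0.0116) and Grin2b without VEH animal 4 (0.0253). Of 28 tested interneuron transcripts, 9 were lower and 1 higher at an unadjusted p under 0.05 (32.1% and 3.57%, against 6.10% and 4.72% of all tested transcripts), with a median log2 fold change of -0.14. Without VEH animal 1 and without PB animal 3 each, 6 were lower, and without PB animal 2 the median was -0.09. Sst, the peptide somatostatin, lay between 2229 and 2644 in VEH and between 1488 and 2331 in PB animals, with 5 of the 6 PB animals below the lowest VEH animal (log2 fold change -0.32, SE 0.09, edgeR adjusted p = 0.146). Reln, the secreted guide of neuronal layering, lay between 3574 and 4148 in VEH and between 2752 and 3805 in PB animals (-0.29, SE 0.07, edgeR adjusted p = 0.0927). Of the 28 transcripts, 7 were above 0, and Calb2, calretinin, was the 1 higher at an unadjusted p under 0.05 (0.31, SE 0.11, edgeR adjusted p = 0.317). In LEV animals 1 to 6 Reln lay between 2793 and 3319, also below all VEH animals 1 to 6. Sst (2349 to 3013) and Calb2 (653 to 1241) overlapped the VEH animals there.

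Of 26 transcripts of the vesicle release machinery, 10 were lower and 1 higher at an unadjusted p under 0.05 (38.5% and 3.85%, with the same 6.10% and 4.72% over all), with a median of -0.13. Without PB animal 2, 9 were lower with a median of -0.08, without VEH animal 1 also 9, and without PB animal 4, 15 were lower. Cplx1, complexin 1, lay between 5379 and 6198 in VEH and between 4276 and 5153 in PB animals, which did not overlap (log2 fold change -0.22, SE 0.05, edgeR adjusted p = 0.112). Cplx1 also did not overlap in animals 7 to 14, with 5445 to 5938 in VEH and 3871 to 5214 in PB animals (-0.31, SE 0.05, edgeR adjusted p = 0.0108). Of 25 transcripts of the GABA synapse, 6 were lower (24%) and none higher, led by Gabrg1, the gamma-1 subunit of the GABA-A receptor, which lay between 473 and 609 in VEH and between 353 and 440 in PB animals (-0.37, SE 0.07, edgeR adjusted p = 0.0564). Of 38 glutamate receptor transcripts, 6 were lower (15.8%) and 1 higher (2.63%), with Grin2b at -0.46 (SE 0.10, edgeR adjusted p = 0.0789). In LEV animals 1 to 6 Gabrg1 lay between 385 and 448, also below all VEH animals 1 to 6. Cplx1 (5417 to 6224) and Grin2b (440 to 780, against 698 to 1100 in VEH) overlapped the VEH animals there.

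The remaining lists were counted in the same way, at an unadjusted p under 0.05, against 6.10% lower and 4.72% higher among all tested transcripts. None of their members was differentially expressed in the edgeR fit of these 12 animals, while Gpr17, of oligodendrocyte precursors, was in DESeq2 (DESeq2 adjusted p = 0.0219). Of 7 tested blood transcripts, 4 globin transcripts were lower (57.1%), among them Hbb (log2 fold change -0.33, SE 0.11, edgeR adjusted p = 0.257), and the summed level of blood transcripts overlapped, with 948 to 1330 CPM in VEH and 671 to 1140 CPM in PB animals. Of 18 hippocampal subfield transcripts 4 were lower (22.2%) and none higher, and of 19 transcripts of oligodendrocyte precursors 4 were lower (21.1%) and 1 higher. Among 15 tested complement and MHC transcripts 3 were higher and 1 lower, and among 27 apoptosis transcripts 3 were higher (11.1%) and none lower. None was higher or lower among the 22 myelin, 22 proliferation, 14 immature neuron, 16 endothelial, 12 drug metabolism and 18 choroid plexus transcripts tested, although the choroid plexus median was 0.71, with a summed level of 39.5 to 5082 CPM in VEH and 32.6 to 7957 in PB animals. Of 77 oxidative phosphorylation transcripts 2 were higher and 2 lower (2.60% each). Of 22 microglial transcripts 1 was higher (4.55%) and 3 lower (13.6%), and of 25 immediate early transcripts none was higher and 2 lower (8%). Of the study's other lists, 25 of 88 GABA neuron transcripts were lower (28.4%) and 2 higher, 8 of 103 oligodendrocyte transcripts were lower (7.77%) and 1 higher, and 7 of 248 microglial transcripts were lower (2.82%) and 9 higher (3.63%), with medians of -0.11, -0.02 and -0.00.
Among stress genes, Mt2A, a metallothionein that binds zinc, lay between 20.2 and 31.4 in VEH and between 41.2 and 64.8 in PB animals, which did not overlap (log2 fold change 0.96, SE 0.18, edgeR adjusted p = 0.0536). In the fit of 18 animals Mt2A was differentially expressed (edgeR adjusted p = 0.0229), as it was without the filter on low counts, with the choroid plexus covariate and with counts summed per gene. The later animals overlapped, with 9.51 to 55.8 in VEH and 15.3 to 47.9 in PB animals.

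A panel of 52 transcripts, which the study or earlier results of these data single out or which mark cell types, was also read in these animals. It was drawn from results that include these 12 animals and so is not independent evidence of a direction. Of the 52, 34 were below and 18 above 0. At an unadjusted p under 0.05, 16 were lower and 7 higher, against 6.10% and 4.72% of all tested transcripts. None passed an adjusted p of 0.05 in the edgeR fit of these 12 animals. The smallest adjusted p was that of Gpr83, a neuropeptide receptor, which lay between 258 and 326 in VEH and between 181 and 232 in PB animals (log2 fold change -0.39, SE 0.08, edgeR adjusted p = 0.0691). Gpr83 was differentially expressed in DESeq2 (DESeq2 adjusted p = 0.00353) and in the fit of 18 animals with LEV (edgeR adjusted p = 0.0408). Cd68, a lysosomal protein of phagocytes, lay between 13.5 and 26.1 in VEH and between 18.6 and 53.2 in PB animals (0.83, SE 0.26, edgeR adjusted p = 0.247). Plek, pleckstrin, had -0.76 (SE 0.24, edgeR adjusted p = 0.250). Opalin, of mature oligodendrocytes, was measured by few counts, 7.69 to 69.2 in VEH and 0.97 to 26.6 in PB animals, whose groups overlapped (-1.27, SE 0.65, edgeR adjusted p = 0.505). Of the 49 tested in both series, 45 had the same sign in animals 7 to 14, against 56.6% of all transcripts tested in both. The results that gave the panel include both series, so this agreement is not independent evidence either.

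Whether the effect of PB differed between animals 1 to 6 and animals 7 to 14 was tested as the interaction of treatment and series over 27 libraries. It passed an adjusted p of 0.05 in 9 of 13190 transcripts (0.0682%), and 1380 (10.5%) had an unadjusted p under 0.05. All 9 had a lower log2 fold change in animals 1 to 6. With VEH animal 7 kept in the fit, 1 transcript passed (Atp2a1, edgeR adjusted p = 0.000908). Besides Atp2a1 (-4.40, edgeR adjusted p = 0.000620), Myh4 (-3.25, edgeR adjusted p = 0.0357) and Gpam, these were Mib1, Prdm11, Arrb1, Gpr17, Pclo and Pcdh15, and in each of the 7 outside muscle PB was below VEH in animals 1 to 6 and above VEH in animals 7 to 14. Atp2a1, Mib1, Prdm11 and Arrb1 passed in every fit that left out 1 animal of the first series. Myh4, Gpr17, Pclo and Pcdh15 were, like Gpam, lost in several of those fits. Gpr17 and Pcdh15 were also lost with the replicate block, and Pclo and Pcdh15 in the fit of all 41 animals.

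Arrb1, beta-arrestin 1, lay between 469 and 528 in VEH and between 402 and 445 in PB animals 1 to 6, without overlap (log2 fold change -0.23, SE 0.05), and between 395 and 547 in VEH and between 467 and 617 in PB animals 7 to 14 (0.28, SE 0.07). Pclo, the active zone scaffold piccolo, had a log2 fold change of -0.48 (SE 0.17) in the first series and of 0.55 (SE 0.10) in the second, a difference of -1.03 (SE 0.20, edgeR adjusted p = 0.0390). Prdm11 had -0.18 and 0.58, and Mib1, a ubiquitin ligase of Notch signaling, -0.19 and 0.31, with edgeR adjusted p values for the difference of 0.0163 and 0.00830. Gpr17, a receptor of oligodendrocyte precursors, had -0.32 and 0.22, and Pcdh15, a protocadherin, -0.46 and 0.29, with edgeR adjusted p values for the difference of 0.0357 and 0.0469. In LEV animals 1 to 6 Arrb1 lay between 312 and 407, below all VEH animals 1 to 6. Gpr17 did so too, with 292 to 381 in LEV and 397 to 511 in VEH animals. Mib1, Prdm11, Pclo and Pcdh15 overlapped between LEV and VEH animals 1 to 6.

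**Figure D5:**
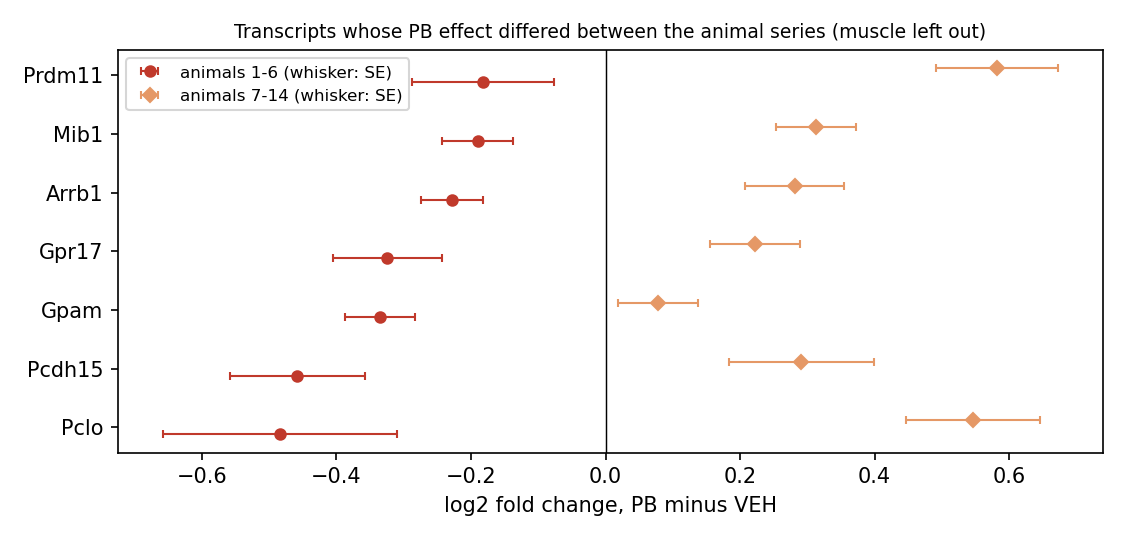
Log2 fold change (PB minus VEH, with SE) of the 7 non-muscle transcripts whose PB effect differed between animals 1 to 6 (circles) and animals 7 to 14 (diamonds). All 7 lie below 0 in the first and above 0 in the second.

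Taken the other way, all 107 transcripts that were differentially expressed in animals 7 to 14 were tested in animals 1 to 6. Of these, 76 had the same sign there, against 7222 of the 12767 transcripts tested in both (56.6%), and 18 also had an unadjusted p under 0.05 in that direction, but none was differentially expressed. The log2 fold change was related to the span of the gene on the genome in opposite ways in the 2 series. Across transcripts, which are not independent replicates, Spearman's rho was -0.12 in the first series and 0.19 in the second, and the median log2 fold change went from 0.02 in the shortest of 10 equal groups of transcripts (median span 2.29 kb) to -0.04 in the longest (211 kb) in the first and from -0.04 to 0.07 in the second. Ribosomal protein genes are short, with a median span of 2.69 kb against 20.9 kb for all tested transcripts, and their median log2 fold change of 0.18 lay above that of the shortest of these groups.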

How the data were processed

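Reads were aligned by the authors to rn6 with STAR 2.7.3a, and the deposited values are estimated counts (expected counts) per RefSeq transcript from the Partek E/M algorithm, without normalization. Of the values, 13.7% were not whole, and counts were rounded. In R 4.3.3 with edgeR 4.0.16, filterByExpr (minimum count 10) kept 12941 of 15516 transcripts of the 12 libraries, and PB was compared with VEH after TMM with glmQLFit, glmQLFTest and Benjamini-Hochberg adjustment over all of them. The later series and the treatment by series term were fitted in the same way. In simulated counts of 12941 transcripts with 200 changed 2-fold, 178 (89.0%) were recovered with 7 false calls, and 0 were called with no change. These counts were drawn independently from the fitted dispersions, without outlying animals or differences in dissection. They therefore do not measure the recovery of changes under 2-fold, or false calls that such differences could give. Printed normalized counts use TMM over 41 libraries. For genes with several transcripts the panel holds the tested one with the highest mean, and 1 of its transcripts is counted but not reported here. Members, lists and tests were chosen with earlier results of these data known. Named were the muscle genes, all called transcripts, the panel, up to 10 transcripts differing between series and list members called or with the smallest p. Any further gene was singled out with its values in view. Authors' deposited comparisons (DESeq2 fold changes and p-values) were not used. Replicates are separate pups. Sequences are RefSeq, GRCr8, while gene coordinates are rn6 as deposited. DESeq2 1.42.0 and the other alternatives are given at the end.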

Additional observations from a re-analysis of the deposited data

Results flagged for a closer look

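Outlying animals were looked for in library totals and in tested transcripts of the named muscle genes, the non-muscle calls and the panel. Transcripts named for other reasons were not included. In each group the animal farthest from the other 5 was tested by the size of its gap (Dixon's ratio above its 95% critical value), in 122 groups. It flagged 12, and chance flags about 1 in 20 groups. In VEH animal 3 the oligodendrocyte transcripts stood above the rest, with normalized counts of 4059 for Mbp, 69.2 for Opalin and 514 for Plxnb3, and so did Cd68 at 26.1. VEH animal 1 had 115 for Tac3, the neuropeptide neurokinin B. PB animal 2, the animal with the largest share of ribosomal RNA, stood apart in Ckm (0.97, which is 1 read where the other PB animals have 0, so that a single read fixes this result), Myh4 (8.70), Lynx1 (1984), Pdgfra (1792) and Ndrg4 (12016). PB animal 5 stood apart in Rps29 (4251) and Pvalb (147). Rps29 remained differentially expressed in the fits without PB animal 2 and without PB animal 5.

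The effect of PB differed between animals 1 to 6 and animals 7 to 14 in 9 transcripts by the treatment by series term (edgeR adjusted p under 0.05). The difference, animals 1 to 6 minus animals 7 to 14 on the log2 scale, was -4.40 for Atp2a1, -3.25 for Myh4, -1.03 for Pclo, -0.76 for Prdm11, -0.74 for Pcdh15, -0.54 for Gpr17, -0.50 for Arrb1, -0.50 for Mib1 and -0.41 for Gpam. The series differ in the animals and may differ in the order of pups and in library handling, which cannot be told apart here.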

How the results depend on the processing

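The count of differentially expressed transcripts (10, of them 2 higher, 8 lower and 5 outside muscle) was 42, 12, 30 and 41 in DESeq2 with its defaults, where Ckm, Atp2a1, Myh4 and Tnnc2 had no adjusted p, 17, 5, 12 and 11 in a fit of 18 animals with LEV, and 16, 4, 12 and 10 with counts summed per gene. With the choroid plexus level as covariate it was 18, 4, 14 and 13, without a fold limit 17, 3, 14 and 12, and with a fold limit of 1.5 it was 7, 1, 6 and 2. A mean of at least 50 counts gave 6 (4 lower), no filter 14 (4 higher), and the fit of all 41 animals 10 with 0 higher. DESeq2 size factors and robust dispersion left each count within 1.5 times. Of the alternatives chosen after seeing the data, leaving out the muscle lists gave 4 (1 higher, 3 lower), without the Slc1a3 transcript, and leaving out VEH animal 1 and PB animal 2 gave 8. Over the fits that left out 1 animal the counts ran from 5 to 16, from 1 to 4 higher, from 4 to 14 lower and from 1 to 11 outside muscle, with 5 without VEH animal 1, 6 without VEH animal 2, 6 without PB animal 6, 15 without VEH animal 6 and 16 without PB animal 2.

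Same-numbered animals did not stand out as pairs (correlations of same-numbered deviations -0.27 to 0.09, 0 of 6 above 0.1, and none closest to its own number). Whether they shared a litter was not tested, as the labels do not give the litters. With the number as a replicate block, 6 transcripts passed, 1 higher, 5 lower and 2 outside muscle. The count of 9 transcripts that differed between the series was 1 with VEH animal 7 kept, 44 in DESeq2, 7 with the replicate block and 4 to 14 without 1 animal, with 5 without VEH animal 1, 2, 3 or 4, 4 without PB animal 6, and 14 without PB animal 2.

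Among named transcripts with no call the sign turned for Ttr (-0.00884) and Fos (-0.047) with the choroid plexus covariate, for Ttr (-0.12) with the block, and for Mbp (0.13) and Hfe (0.42) without VEH animal 1 and PB animal 2. Without 1 animal, log2 fold changes ran from -0.38 to 0.27 for Mbp, -0.56 to 0.25 for Hfe, -0.11 to 0.22 for Fos, -0.16 to 0.060 for Mog, -0.26 to 0.042 for Npas4 and -0.044 to 0.022 for Olig2. The cause was not tested.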
